A study of Mus musculus with 81 samples.

Results

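The early transcriptional response to a switchable Notch1 was followed through total RNA of a mature T cell line, a mouse hybridoma made by fusing T cells with a tumour line. The comparison sets 3 libraries of cells given 1 µM of (Z)-4-hydroxytamoxifen (4-OHT) for 4 h against 2 libraries of cells given ethanol, its solvent, for 24 h. These libraries were taken by their column headings, and they make 5 of the 32 libraries used here from a series of 81 samples. All cells of both groups had been infected with NICD1-ER, the intracellular domain of Notch1 joined to the estrogen receptor. Such a fusion is held inactive until 4-OHT binds the receptor part. The same cells were also treated with 4-OHT for 8 h (3 libraries) and 24 h (2 libraries). The labels name no promoter or clone for the construct, no cells given 4-OHT without NICD1-ER and no ethanol group at 4 h. Effects of 4-OHT itself, and of 4 h against 24 h in culture, therefore cannot be told apart from those of the released Notch1 domain.

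Notch receptors are cut by gamma-secretase when a neighbouring cell presents a ligand, and the freed intracellular domain (NICD) moves to the nucleus. There it binds the DNA-binding protein RBPJ and brings in Mastermind-like and p300 coactivators, while RBPJ without NICD recruits corepressors and keeps target genes low. In developing T cells this pathway commits progenitors to the T lineage, and well-known targets are the Hes and Hey repressors, Nrarp, Dtx1 and Il2ra. The other experiments of the series used here were biotin-tagged NICD1 (BioNICD1) against its control vector (Biocontrol) in RBPJ-depleted and in control cells, the gamma-secretase inhibitor DAPT (GSI) against DMSO, and 2 RBPJ-depleted lines against a control line.

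The 5 libraries held 4325641 to 5342897 counts, and levels are given as CPM, the counts scaled to a common library total. A count of 3 corresponded to 0.562 to 0.694 CPM. Replicates 1 and 2 at 4 h differed by less than the sampling noise (chi-square of 0.907 per gene, against 2.12 and 1.33 for their pairs with replicate 3 and 1.65 between the ethanol libraries). Their counts were added and treated as a single sample, so each group has 2 samples. Replicates 2 and 3 at 24 h of 4-OHT were about as alike (0.928 per gene). They were kept as 2 samples and enter the estimate of spread that all NICD1-ER groups share. Nothing in the labels says that replicates were separate cultures, so p-values measure only the spread between these samples, which may be technical. T cell markers were present: 9 of 12 listed markers were found, their summed level was 902 to 941 CPM at 4 h and 900.0 to 972 CPM in ethanol, and none passed the test. The B cell markers Ms4a1, Cd79b, Pax5 and Ebf1 were at 0, and 4 of 5 NK cell markers were at 0. Myeloid markers summed to 28.8 to 29.8 CPM at 4 h, against 39.2 to 43.2 CPM in ethanol; Cd68, a lysosomal protein of macrophages, was the 1 called (log2 −0.53), and the part of such cells in other results was not tested.

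After 4 h of 4-OHT, 373 genes were higher and 365 lower than in ethanol among 11808 genes tested (edgeR's quasi-likelihood test, Benjamini-Hochberg adjusted p of at most 0.05). The share called was 6.25%, with 3.16% higher and 3.09% lower. Most changes were small: the median size among called genes was 0.37 on the log2 scale, a 1.29-fold change. The large changes were mostly upward, with 51 genes at least 2-fold higher against 21 at least 2-fold lower, and 14 against 1 at 4-fold. The calls depended on single samples: 465 genes were called without the summed replicates 1 and 2 at 4 h, 436 without ethanol replicate 2 and 434 without ethanol replicate 3. DESeq2 called 230. In bulk RNA, fewer cells of a type and less RNA per cell cannot be told apart.

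**Figure D1:**
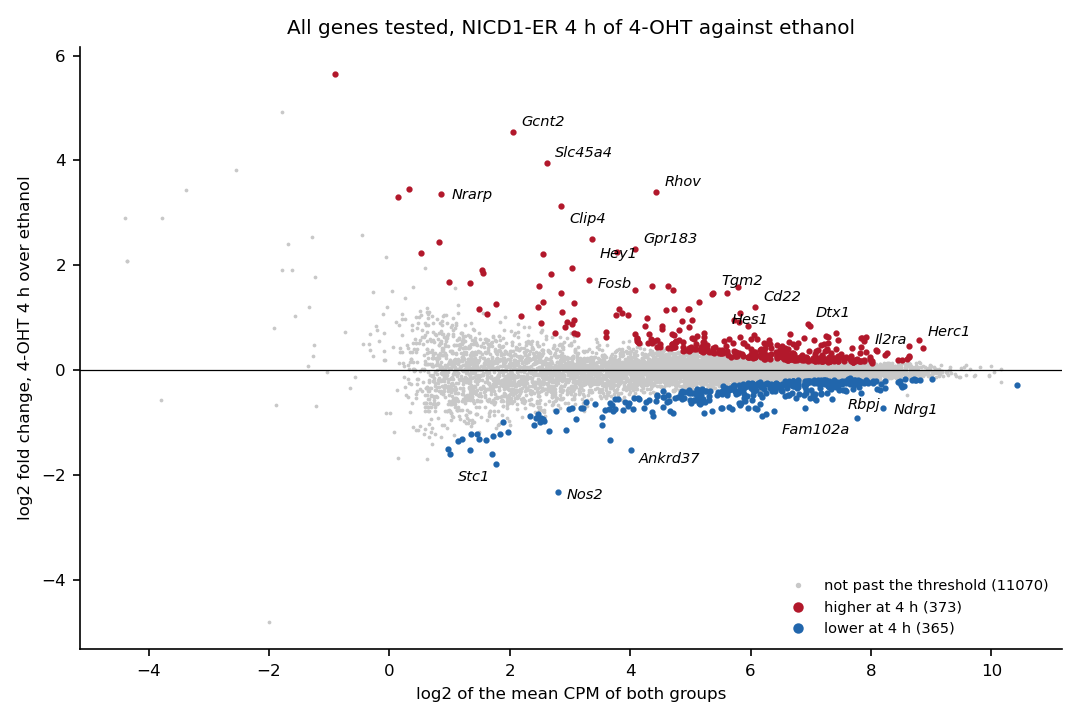
Each point is 1 of the 11808 genes tested, with the log2 of its mean CPM over both groups on the x axis and its log2 fold change, 4-OHT for 4 h over ethanol, on the y axis. Red points are the 373 genes higher at 4 h and blue points the 365 lower. The large changes lie mostly above 0.

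Notch target genes that rose did so by widely different amounts. Of 27 listed targets 19 were tested, of which 7 were higher and 1 lower at 4 h (42.1% called, against 6.25% of all genes), with a median log2 fold change of 0.18 against 0.00 over all genes tested. Hey1, a repressor of the Hes and Hey family, had 19.0, 14.9 and 18.1 CPM at 4 h, against 3.003 and 3.065 CPM in ethanol. All libraries at 4 h lay far above both ethanol libraries, and Hey1 was 5.67-fold higher (log2 2.50 ± 0.21 SE, adjusted p = 1.12e-06). Nrarp, which limits Notch signalling by binding the NICD complex, held 19, 18 and 16 counts at 4 h, against 1 and 2 counts in ethanol. The ratio of its group totals was 10.8, with an exact 95% counting interval of 3.51 to 54.2 that covers counting error only (edgeR adjusted p = 0.000626).

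Dtx1, an E3 ubiquitin ligase of the Deltex family and a feedback regulator of Notch, started from a high level. It had 169.8, 164.7 and 152.2 CPM at 4 h, against 88.5 and 85.6 CPM in ethanol. The groups did not overlap, and the rise was 1.85-fold (log2 0.89 ± 0.06 SE, edgeR adjusted p = 1.07e-07). Hes1, the founding Notch target among the Hes repressors, had 69.9, 67.5 and 69.5 CPM at 4 h, against 43.7 and 44.6 CPM in ethanol. It was 1.56-fold higher (log2 0.64 ± 0.07 SE, edgeR adjusted p = 1.84e-05), with less than 3 CPM between libraries of a group. Il2ra, the alpha chain of the interleukin 2 receptor, had 267, 264.8 and 276.8 CPM at 4 h, against 212.8 and 210.9 CPM in ethanol, a rise of 1.28-fold (edgeR adjusted p = 0.000115).

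Tcf7, a transcription factor of early T cells, and Cd28, the costimulatory receptor, were also called higher, but both calls rested on single samples. Adjusted p for Tcf7 (log2 0.18, edgeR adjusted p = 0.0334) ranged from 0.0217 to 0.267 when each sample was left out in turn, and the call was lost without the summed replicates or replicate 3 at 4 h and without ethanol replicate 3. For Cd28 (log2 0.39, edgeR adjusted p = 0.0458) it ranged from 0.00542 to 0.326, and the call was lost without replicate 3 at 4 h and without ethanol replicate 2. DESeq2 called neither. Listed targets that did not pass the test included Myc (log2 −0.15, edgeR adjusted p = 0.12), Gata3 (log2 0.05), Ccnd1 (log2 −0.01) and Gzmb (log2 −0.02). The classical targets Hes5, Hey2, Hes7 and Heyl had at most 3 counts in each of these 5 libraries and were not tested.

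**Figure D2:**
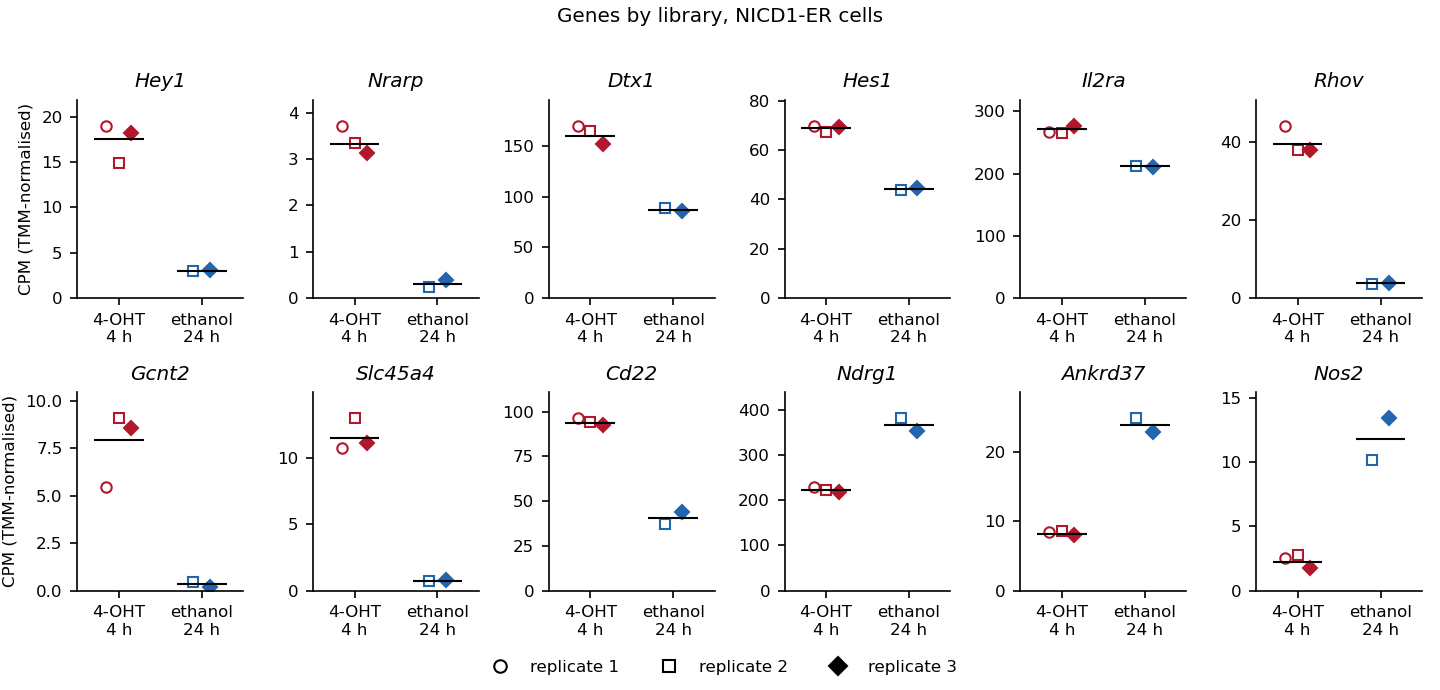
CPM after TMM normalisation of 12 genes in each library, with 4-OHT for 4 h in red on the left of each panel and ethanol for 24 h in blue on the right; lines are the means of the 2 samples per group, in which replicates 1 and 2 at 4 h were summed. The 9 genes from Hey1 to Cd22 lie higher at 4 h and the 3 from Ndrg1 to Nos2 lower, without overlap between the groups, as for 18.6% (higher) and 17% (lower) of all genes tested.

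The genes that rose most were not all classical targets. Gcnt2, a glycosyltransferase that makes branched I-antigen sugar chains, had 5.48, 9.11 and 8.58 CPM at 4 h, against 0.462 and 0.192 CPM in ethanol. With 121 counts at 4 h and 3 in ethanol, the ratio was 24.7 with an exact 95% counting interval of 8.26 to 122 (edgeR adjusted p = 2.53e-06). Slc45a4, a solute carrier, had 10.8, 13.0 and 11.1 CPM at 4 h, against 0.693 and 0.766 CPM in ethanol, and was 15.5-fold higher (log2 3.95 ± 0.32 SE, edgeR adjusted p = 6.25e-07). Rhov, an atypical small GTPase, had the smallest adjusted p of all genes tested at 4 h, 1.25e-09 by edgeR. Its levels were 44.1, 37.7 and 37.9 CPM at 4 h, against 3.696 and 3.832 CPM in ethanol, a 10.5-fold rise. Clip4, a microtubule-binding protein, was 8.79-fold higher, with 12.3 to 14.5 CPM at 4 h against at most 1.85 CPM in ethanol.

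Several risers encode surface receptors and secreted proteins of lymphocytes. Gpr183, a receptor for oxysterols that guides immune cells within lymphoid tissue, had 31.9, 25.1 and 27.7 CPM at 4 h, against 6.47 and 4.98 CPM in ethanol, and was 4.96-fold higher (edgeR adjusted p = 1.07e-07). The chemokine receptor Ccr7, which directs T cells to lymph nodes, was 2.25-fold higher. Gpr18 was 3.87-fold and Havcr2, the inhibitory receptor TIM-3, 2.12-fold higher. Il22, a cytokine that acts on epithelia, had 31.0, 31.0 and 30.8 CPM at 4 h, against 9.70 and 10.5 CPM in ethanol. Its near-identical copy Iltifb had 21.2, 23.4 and 23.2 CPM at 4 h, against 4.39 and 4.98 CPM in ethanol. Reads may be split between these copies, so the separate rises of 3.04-fold and 4.79-fold are uncertain. Plxnd1, a semaphorin receptor that positions developing thymocytes, was 2.90-fold higher with 35.4 to 40.8 CPM at 4 h, against 13.0 to 13.4 CPM in ethanol.

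Further genes were named after their values were seen, because their adjusted p was among the smallest. Cd22, a sialic acid-binding inhibitory receptor best known from B cells, had 96.4, 94.2 and 92.3 CPM at 4 h, against 37.4 and 43.7 CPM in ethanol, and was 2.31-fold higher (edgeR adjusted p = 1.01e-07). The other B cell markers found summed to 1.55 CPM at 4 h, so Cd22 accounted for nearly all of that list's level. Tgm2, a transglutaminase that crosslinks proteins, was 2.77-fold higher, the pseudokinase Trib2 2.74-fold, and the aldehyde dehydrogenase Aldh3b1 2.997-fold. Rasal1, a Ras GTPase-activating protein, was 1.80-fold higher and Ksr1, a scaffold of the Raf and MAP kinase cascade, 1.64-fold. Dusp1, a MAP kinase phosphatase, was 2.77-fold higher, with 68.5 to 75.8 CPM at 4 h against 21.9 to 29.9 CPM in ethanol.

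Genes with the largest gain in CPM changed by less than 1.6-fold. Herc1, a giant ubiquitin ligase, had 417, 499 and 614 CPM at 4 h, against 328 and 387 CPM in ethanol, and was 1.48-fold higher. Its 3 libraries at 4 h were spread widely but did not overlap those in ethanol. Nin, a centrosomal protein, rose 1.34-fold, and Aak1, a kinase of clathrin adaptors, had 422 to 491 CPM at 4 h against 324.1 to 339.7 CPM in ethanol. Furin, the protease that cleaves Notch receptors on their way to the surface, had 300.4, 299.6 and 289.7 CPM at 4 h, against 195.7 and 183.9 CPM in ethanol, a rise of 1.56-fold (edgeR adjusted p = 3.80e-07). Ptk2b, the focal adhesion kinase PYK2, had 275 to 286 CPM at 4 h, against 177 to 185 CPM in ethanol.

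Promoters of risers were searched for TGGGAA, the core of the sequence that RBPJ binds, on both strands of the 300 bases from 250 before to 50 after the gene start in RefSeq (GRCm38.p6). Of 403 promoters belonging to 295 of the 373 risers, 83 held it (20.6%), against 22.8% for all tested genes and 25.6% of all 32851 promoters. Among genes at least 2-fold higher, 13 of 52 promoters held it. The longer GTGGGAA, which contains TGGGAA, was in 6 of these 52 (11.5%), but in 22 of 403 promoters of all risers (5.46%), against 5.57% for the genes that fell, 5.86% for all tested genes and 6.38% of all promoters. A match describes the letters only and is not a bound site, and the lists of RBPJ-bound regions of the study, on another genome build, were not joined to genes here. Promoters of a pair of strong risers that hold the core are shown because the match can be seen in its context, with the match in capitals, in Cd22 at chr7:30878979-30879278 on the minus strand and in Gpr183 at chr14:121965144-121965443 on the minus strand.
Cd22: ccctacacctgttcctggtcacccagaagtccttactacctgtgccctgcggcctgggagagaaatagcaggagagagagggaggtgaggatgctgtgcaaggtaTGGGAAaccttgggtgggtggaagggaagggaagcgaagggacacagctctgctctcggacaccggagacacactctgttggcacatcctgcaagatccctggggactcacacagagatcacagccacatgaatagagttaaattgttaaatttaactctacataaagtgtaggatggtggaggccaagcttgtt
Gpr183: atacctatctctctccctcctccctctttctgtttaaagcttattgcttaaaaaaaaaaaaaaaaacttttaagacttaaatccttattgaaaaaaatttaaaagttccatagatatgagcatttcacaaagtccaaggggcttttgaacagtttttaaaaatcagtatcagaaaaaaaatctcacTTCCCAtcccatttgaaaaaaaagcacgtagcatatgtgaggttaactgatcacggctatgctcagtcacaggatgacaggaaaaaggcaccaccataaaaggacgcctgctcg
In Cd22 the core is read on the gene's own strand and in Gpr183 on the opposite one, where it appears as TTCCCA.

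Among the genes of the pathway itself, Rbpj fell. It had 163.7, 156.1 and 166.2 CPM at 4 h, against 213.2 and 206.5 CPM in ethanol, so that every library at 4 h lay below both ethanol libraries (log2 −0.37 ± 0.05 SE, edgeR adjusted p = 6.74e-05). Its level stayed lower at 8 h (158.5 CPM) and 24 h (156.6 CPM). The promoter of the upstream of its 2 listed starts, at chr5:53590096-53590395 on the plus strand, is shown because it holds the RBPJ core on each strand, in capitals.
Rbpj: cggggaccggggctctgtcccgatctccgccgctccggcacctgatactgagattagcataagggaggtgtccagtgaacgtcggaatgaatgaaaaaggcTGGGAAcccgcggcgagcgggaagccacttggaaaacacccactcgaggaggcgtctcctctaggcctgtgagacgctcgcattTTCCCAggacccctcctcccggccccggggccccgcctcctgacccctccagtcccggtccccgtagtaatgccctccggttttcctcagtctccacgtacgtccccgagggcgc

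Reads from NICD1-ER and from the endogenous genes that supplied its parts look alike in this table. Notch1 had 137.1, 135.3 and 130.5 CPM at 4 h, against 159.6 and 155.6 CPM in ethanol (log2 −0.23, edgeR adjusted p = 0.0149). Leaving out ethanol replicate 2 or 3 ended this call, with adjusted p up to 0.0878, and DESeq2 did not make it. Esr1, which shares sequence with the receptor part, had 3.33, 4.27 and 4.29 CPM at 4 h, against 6.24 and 6.13 CPM in ethanol, and did not pass the test (edgeR adjusted p = 0.141). Of 23 tested genes for Notch receptors, ligands and processing enzymes, 2 were higher (Furin and Jag1) and 2 lower (Notch1 and Lfng). That is 17.4% called, against 6.25% of all genes (3.16% higher and 3.09% lower). Jag1, a Notch ligand, was called at an adjusted p of 0.0428 (edgeR), but not when any of the 4 samples was left out (0.0533 to 0.218). Lfng, the Fringe glycosyltransferase that modifies Notch, was lower (log2 −0.30, edgeR adjusted p = 0.00737), and its call was lost without ethanol replicate 2 (0.0723). Of 12 tested coactivator genes 1 was higher and 2 lower, Rbpj included, and of 15 corepressor genes 1 was higher and 2 lower.

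The cells given ethanol already held higher levels of several Notch targets than the control line, the DMSO cells or the Biocontrol control cells of the series, none of which carries NICD1-ER. The following values are CPM of the library total, given side by side without a test because line, construct and experiment differ together. Hes1 was at 43.7 and 44.6 CPM in NICD1-ER cells in ethanol, against 1.68 and 0.208 CPM in the control line of the depletion experiment and 0.555 and 0.632 CPM in cells given DMSO. Cells depleted of RBPJ, also without NICD1-ER, held as much as 61.5 CPM of Hes1: it ranged from 20.5 to 61.5 CPM in the depleted lines and from 24.9 to 27.2 CPM in depleted cells with Biocontrol. Dtx1 was at 88.5 and 85.5 CPM in NICD1-ER cells in ethanol, against 0 and 0.832 CPM in that control line. Il2ra was at 212.9 and 210.7 CPM in NICD1-ER cells in ethanol and at 0 and 0.208 CPM in the control line, and Cd22 at 37.5 and 43.6 CPM against 0.841 and 1.25 CPM. Nrarp did not share this pattern: it was at 0.231 and 0.383 CPM in NICD1-ER cells in ethanol, against 0.421 and 0.208 CPM in the control line. Dtx1 stayed at or below 1.05 CPM and Il2ra at or below 13.3 CPM in depleted cells, while control cells with BioNICD1 held 217 to 291 CPM of Dtx1 and 469 to 533 CPM of Il2ra. The 3-count floor of the control libraries was 1.26 and 0.624 CPM, so their single counts are at or near the limit of detection.

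Genes of glycolysis and hypoxia, which serve sugar use and the response to low oxygen, moved in 1 direction where they were called. Of 33 tested members 16 were lower and 0 higher at 4 h, with a median log2 fold change of −0.18 (DESeq2: 12 lower, 0 higher). Without any tool's adjustment, 22 of the 33 had p under 0.05, all of them lower. The background shares were 3.09% lower and 3.16% higher over all genes tested. Ankrd37, an ankyrin-repeat protein induced by low oxygen, fell most: it had 8.42, 8.55 and 8.00 CPM at 4 h, against 24.9 and 23.0 CPM in ethanol (log2 −1.52 ± 0.16 SE, edgeR adjusted p = 8.82e-06). Ndrg1, a stress-induced gene, had 229.7, 223.4 and 217.5 CPM at 4 h, against 381.6 and 352.3 CPM in ethanol, with no overlap (log2 −0.72 ± 0.05 SE, edgeR adjusted p = 1.07e-07). Bnip3, which acts in mitophagy, had 55.8, 53.2 and 57.6 CPM at 4 h, against 87.8 and 85.3 CPM in ethanol.

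Smaller falls were seen in the glucose transporter Slc2a1 (log2 −0.37), the lactate exporter Slc16a3 (−0.36), hexokinase 2 (Hk2, −0.25), the aldolase Aldoc (−0.58) and the carbonic anhydrase Car9 (−0.45). Core glycolytic enzymes did not pass the test, among them Gapdh (log2 −0.12), Pgk1 (−0.14), Ldha (−0.13) and Pkm (−0.12), and neither did Vegfa (−0.03). ACGTG, the core that hypoxia-inducible factors bind, was chosen as a motif after these values were seen. It stood on either strand in 10 of 16 promoters of the list members that fell (62.5%) and in 22 of 42 promoters of the whole list (52.4%), against 25.6% for all tested genes and 19.6% of all promoters. The promoters of the strongly lowered Bnip3 (chr7:138909457-138909756) and Ankrd37 (chr8:45999801-46000100), both on the minus strand, are shown with this core in capitals.
Bnip3: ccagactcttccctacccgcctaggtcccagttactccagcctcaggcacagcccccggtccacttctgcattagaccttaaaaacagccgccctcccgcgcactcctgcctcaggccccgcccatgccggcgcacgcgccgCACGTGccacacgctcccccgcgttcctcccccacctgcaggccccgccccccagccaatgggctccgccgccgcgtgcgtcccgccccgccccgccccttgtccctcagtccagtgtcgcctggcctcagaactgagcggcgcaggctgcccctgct
Ankrd37: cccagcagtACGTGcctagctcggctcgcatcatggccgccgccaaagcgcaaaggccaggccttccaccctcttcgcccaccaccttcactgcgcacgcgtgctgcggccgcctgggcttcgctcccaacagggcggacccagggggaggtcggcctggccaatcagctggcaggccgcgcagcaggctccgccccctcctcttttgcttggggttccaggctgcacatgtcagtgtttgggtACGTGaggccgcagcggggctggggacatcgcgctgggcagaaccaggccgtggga
In Bnip3 the 2 matches, on opposite strands, overlap in the palindrome CACGTG.

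Outside that list, Nos2, the inducible nitric oxide synthase, fell most among genes above 5 CPM. It had 2.55, 2.79 and 1.76 CPM at 4 h, against 10.2 and 13.4 CPM in ethanol (log2 −2.32 ± 0.24 SE, edgeR adjusted p = 1.14e-05). Stc1, a secreted glycoprotein, had 1.96, 1.49 and 1.17 CPM at 4 h, against 5.54 and 5.17 CPM in ethanol (log2 −1.78, edgeR adjusted p = 0.00505). Nrp2, a coreceptor for semaphorins and VEGF, had 6.88 to 8.03 CPM at 4 h, against 15.1 to 15.9 CPM in ethanol (log2 −1.05, edgeR adjusted p = 0.000875). Ypel2 fell by 1.33 on the log2 scale and Fam102a by 0.90. Of the other strong fallers by rule, Acpp, Zfyve28, Mgst3, Des, Stbd1, Eml1, Fam171b and Gm853 were each lost when at least 1 sample was left out, and Ankrd35 was not. Plec, Acot11 and Ero1l, among the largest losses in CPM, each fell by less than 1.3-fold.

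Genes of the circadian clock were looked at after their values were seen. Dbp, a clock output gene, had 62.5, 58.4 and 62.8 CPM at 4 h, against 113.0 and 97.7 CPM in ethanol (log2 −0.77, edgeR adjusted p = 1.85e-06). The clock repressors Per1 (log2 −0.62) and Nr1d1 (log2 −0.82) fell as well. The groups were harvested 4 h and 24 h after their treatments began, and the time of day is not given, so hour of harvest and treatment cannot be told apart for these genes.

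Lists of T cell genes moved in both directions, and their shares called are to be read against 3.16% higher and 3.09% lower over all genes. Among 25 immediate early genes 4 were higher and 6 lower (40.0% called): the AP-1 subunit Fosb had 16.5, 17.1 and 13.7 CPM at 4 h, against 4.16 and 5.17 CPM in ethanol (log2 1.73, edgeR adjusted p = 6.10e-05), while the AP-1 subunit Fosl2 and the antiproliferative Btg2 fell by 0.43 and 0.53 on the log2 scale. Among 24 T lineage genes 4 were higher and 5 lower (37.5% called). The transcription factors Runx1 (log2 0.45) and Runx3 (log2 0.37) rose, and the coreceptor Cd4 fell by 0.89 on the log2 scale, with 9.21, 8.73 and 6.83 CPM at 4 h against 14.8 and 15.7 CPM in ethanol.

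Chemokine receptor and homing genes split as well, with 3 of 22 higher and 4 lower (31.8% called, against 6.25% of all genes). Besides Ccr7, the receptor Ccr4 (log2 0.40) and the homing regulator Klf2 (log2 0.71) rose, whereas Ccr6 fell by 0.78 and Cxcr6 by 0.50 on the log2 scale. Among 20 activation and checkpoint genes 4 were higher and 3 lower (35.0% called), with Cd6 (log2 0.77) higher and Pdcd1, the inhibitory receptor PD-1, at 196.8, 197.9 and 191.0 CPM at 4 h, against 275.6 and 248.3 CPM in ethanol. Of 10 cytotoxic granule genes 2 were higher and 0 lower, among them Serpinb9, an inhibitor of granzyme B, which was 1.51-fold higher with 77.2 to 78.2 CPM at 4 h against 47.1 to 55.2 CPM in ethanol. The other, Gzma, encodes granzyme A, and its call was lost without the summed replicates at 4 h and without either ethanol replicate (adjusted p up to 0.391). Of 12 cytokine genes 2 were higher and 2 lower (33.3% called), and of 12 neuropilin, plexin and semaphorin genes 1 was higher and 3 lower (33.3% called).

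Among proliferation lists, mitosis genes had calls in 1 direction. Of 25 tested 5 were higher and 0 lower (20.0% called, against 3.16% higher over all genes), with a median log2 fold change of 0.13 and Cenpa, the centromeric histone, at 106.7, 101.3 and 97.5 CPM at 4 h, against 84.1 and 71.7 CPM in ethanol. DESeq2 called 1 of them, and the Cenpa call was lost without ethanol replicate 3 (adjusted p = 0.0782). Of 30 G1 and S phase genes 1 was higher and 2 lower, and of 32 MYC and ribosome biogenesis genes 1 was higher and 2 lower (9.38% called), against 6.25% of all genes. Mxd4, an antagonist of MYC, fell by 0.72 on the log2 scale.

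Some stress and signalling lists had called members in both directions and others only lower members, against 6.25% called over all genes. Of 33 interferon response genes 3 were higher and 3 lower (18.2% called): Isg15 was 2.00-fold and Irf9 1.54-fold higher, while Usp18 fell by 0.46 and Oas3 by 0.44 on the log2 scale. Of 26 unfolded protein and ATF4 response genes 3 were higher and 3 lower (23.1% called), with the cystine transporter Slc7a11 1.51-fold higher. Of 27 cholesterol and fatty acid synthesis genes 0 were higher and 3 lower (11.1% called). Of 20 p53 and BCL2 family genes 0 were higher and 4 lower (20.0% called; Bcl2, log2 −0.35), and of 16 NF-kB response genes 1 was higher and 3 lower, Nos2 included. Txnip was the single call among 5 alpha-arrestin genes (log2 −0.27). No heat shock gene of 11 was called by edgeR or DESeq2, with 1 under an unadjusted p of 0.05.

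Estrogen receptor target genes bear on the receptor part of the construct and on 4-OHT, which also binds the estrogen receptor. Of 12 tested members none was called by edgeR or by DESeq2, and 5 had an unadjusted p under 0.05, all of them lower. Over all genes edgeR called 6.25%, and 12 genes are too few to tell 0 calls from that share. Their median log2 fold change was −0.04. The part of 4-OHT in the other changes was not tested.

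The 51 genes that rose at least 2-fold were then followed in time within the same cells. These comparisons share the libraries at 4 h with the comparison above. From 4 to 8 h, 56 genes of 11808 differed (0.474%), 45 higher (0.381%) and 11 lower (0.0932%) at 8 h. Of the 51, 18 were higher at 8 h than at 4 h and 0 lower. From 4 to 24 h 1584 genes differed (13.4%), 945 higher (8%) and 639 lower (5.41%) at 24 h, and 40 of the 51 were higher and 1 lower. Over all 373 risers 141 were higher (37.8%) and 62 lower (16.6%) at 24 h than at 4 h. The count between 4 and 8 h was 12 without the summed replicates 1 and 2 at 8 h and 111 without those at 4 h, and that between 4 and 24 h was 777 or 702 without replicate 2 or 3 at 24 h and 1024 without the summed replicates at 4 h.

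Slc45a4 averaged 0.730 CPM in ethanol, 11.5 CPM at 4 h, 28.5 CPM at 8 h and 109.8 CPM at 24 h. Gcnt2 averaged 0.327 CPM in ethanol, 7.96 CPM at 4 h, 18.0 CPM at 8 h and 68.5 CPM at 24 h. Both kept climbing throughout, by 3.24 and 3.14 on the log2 scale between 4 and 24 h (edgeR adjusted p = 8.32e-13 and 1.09e-11). Hey1 averaged 33.1 CPM at 8 h and 66.3 CPM at 24 h, and Tgm2 138.4 and 282.7 CPM. Nrarp averaged 8.99 CPM at 8 h and 23.3 CPM at 24 h, a rise of 2.78 on the log2 scale after 4 h (edgeR adjusted p = 1.27e-08).

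The difference of Hes1 between 4 and 24 h did not pass the test. Hes1 averaged 69.0 CPM at 4 h, 67.2 CPM at 8 h and 72.2 CPM at 24 h, and the difference between 24 and 4 h was 0.07 ± 0.06 SE on the log2 scale (edgeR adjusted p = 0.573). Fosb went the other way: it averaged 15.2 CPM at 4 h, 15.6 CPM at 8 h and 3.62 CPM at 24 h, below its level at 4 h by 2.12 on the log2 scale (edgeR adjusted p = 5.19e-06). Dusp1 and Furin were higher again at 24 h, by 0.46 and 0.44 on the log2 scale.

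Part of the genes lowered at 4 h were higher again at 24 h: of 365, 148 were higher (40.5%, against 8% of all genes) and 21 lower (5.75%, against 5.41%) than at 4 h. These genes were chosen in the same libraries at 4 h, and a low reading there would by itself place a gene lower at 4 h and higher at 24 h. Ndrg1 averaged 224.6 CPM at 8 h and 382.7 CPM at 24 h, and its difference from ethanol at 24 h was 0.06 on the log2 scale (edgeR adjusted p = 0.548). Bnip3 differed from ethanol by 0.00 on the log2 scale at 24 h (edgeR adjusted p = 0.997), and Nos2 by 0.39 (edgeR adjusted p = 0.209). Of the 33 glycolysis and hypoxia genes 19 were higher and 2 lower at 24 h than at 4 h, with a median of 0.25. Against ethanol, 0 were higher and 16 lower at 8 h, where 10.4% of all genes were called, 5.06% higher and 5.31% lower. At 24 h 6 were higher and 2 lower, where 10.8% of all genes were called, 6.59% higher and 4.22% lower. The ethanol cells and the cells at 24 h of 4-OHT were treated for the same 24 h, whereas those at 4 and 8 h were treated for less, so for this list time since treatment and 4-OHT cannot be told apart.

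Rbpj, Nrp2 and Lef1 did not follow that course. Rbpj was still lower than ethanol by 0.42 on the log2 scale at 24 h (edgeR adjusted p = 9.91e-06). Nrp2 was at 3.72 CPM at 24 h, lower than at 4 h by 1.02 on the log2 scale (edgeR adjusted p = 0.00852). Lef1, a partner of beta-catenin in T cell development, was lower than ethanol by 0.38 at 4 h and by 1.00 at 24 h on the log2 scale.

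**Figure D3:**
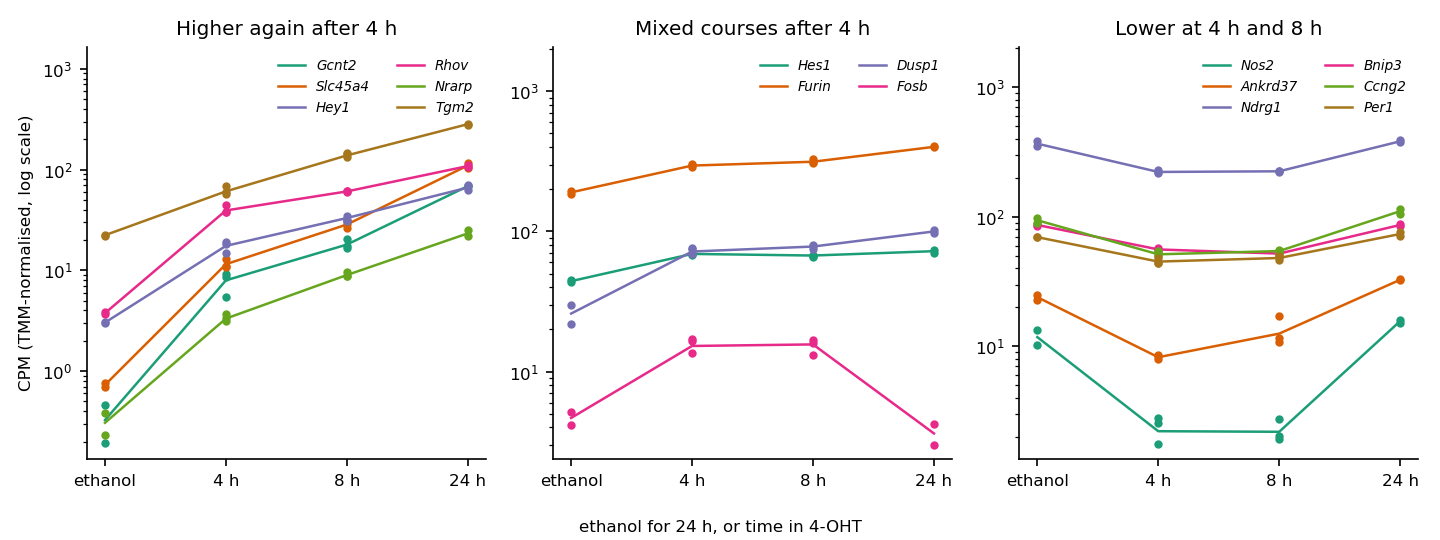
CPM after TMM normalisation on a log axis in ethanol (24 h) and after 4, 8 and 24 h of 4-OHT; points are libraries and lines join the means of the samples. Slc45a4, Gcnt2 and Nrarp climb throughout, the means of Hes1 lie between 67.2 and 72.2 CPM from 4 h on, Fosb falls to 3.62 CPM at 24 h, and Ndrg1 and Nos2 are lower at 4 and 8 h than in ethanol.

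The risers were compared with BioNICD1, an active Notch1 domain that needs no 4-OHT, in cells that share no library with the NICD1-ER experiment. In control cells BioNICD1 changed 3723 of 11315 genes (32.9%), 2114 higher (18.7%) and 1609 lower (14.2%). Of the 373 genes higher at 4 h, 363 were tested there and 170 were higher with BioNICD1 (46.8%), against 18.2% of all genes tested in both experiments. These 170 are 8.51% of the genes higher with BioNICD1. Of the 51 risers of at least 2-fold, 10 had too few counts to be tested, and 15 of the 41 tested passed the filter on low counts through their level in control cells with BioNICD1 alone, so they had to differ there. A filter without those libraries, added after these data were seen, kept 26 of the 51, of which 20 were higher with BioNICD1 in control cells (76.9%, against 17.7% of all genes so filtered) and 1 lower. Of the 363 tested among all 373 risers, 21 had likewise passed through those libraries alone. Of the 342 kept by the filter without them, 151 were higher (44.2%, against the same 17.7%) and 42 lower.

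In RBPJ-depleted cells BioNICD1 changed 469 of 11315 genes (4.14%), 2.7% higher and 1.45% lower. Of the same 26 genes 0 were higher and 1 lower, too few genes to tell 0 from a share of 2.7%. None was higher with DESeq2 either, or when any library was left out, although the total count was then 165, 187 or 1224 without Biocontrol replicate 1, 2 or 3 and 287 without BioNICD1 replicate 1. Over all risers, 24 of the 363 tested were higher with BioNICD1 in depleted cells (6.61%, against 2.75% of all genes tested in both experiments). Of these 363, 9 were lower (2.48%, against 1.43%). The BioNICD1 effect was smaller in depleted than in control cells, by the test of that difference, for 20 of the 26 (76.9%, against 12.9% of all genes so filtered). Over all genes this difference was called for 22.5%, 9.17% higher and 13.3% lower. Notch1 reads, which include those of the construct, were at 694, 1001 and 882 CPM in depleted cells with BioNICD1, against 161, 182 and 177 CPM in control cells with BioNICD1. Hey1 was at 0.198, 2.25 and 1.29 CPM with BioNICD1 and 1.38, 0.907 and 0.695 CPM with Biocontrol in depleted cells, and at 69.7, 76.8 and 76.5 CPM with BioNICD1 and 0.242, 0 and 0.370 CPM with Biocontrol in control cells. Tgm2 was at 301, 332 and 327 CPM with BioNICD1 in control cells, against 1.09, 0.557 and 0.740 CPM with Biocontrol.

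**Figure D4:**
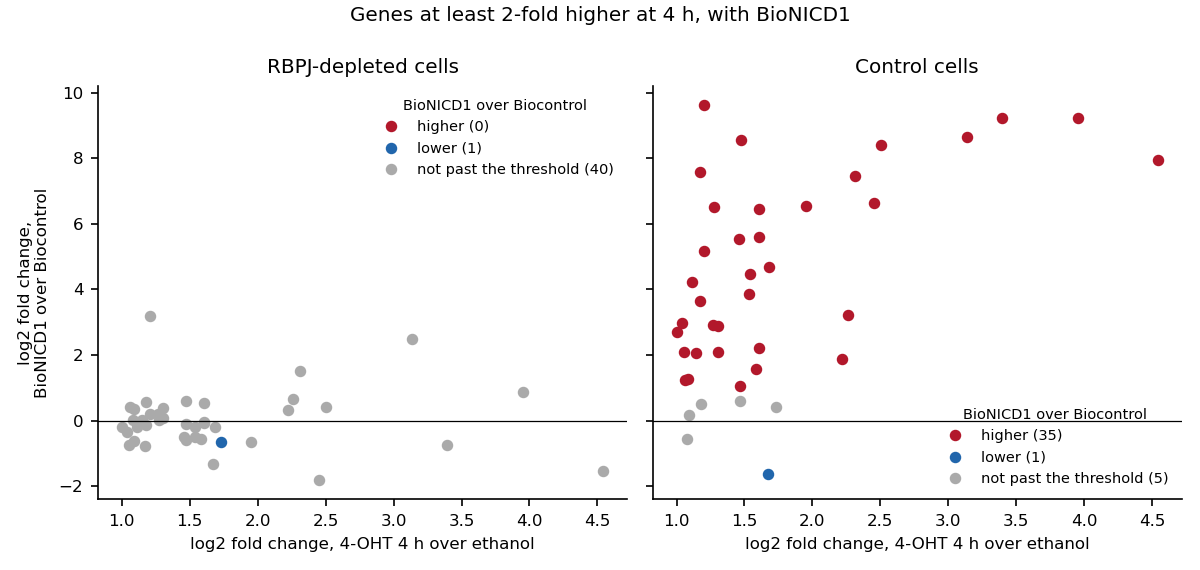
The 41 genes at least 2-fold higher at 4 h that were also tested with BioNICD1. Their log2 fold change at 4 h over ethanol is on the x axis and that of BioNICD1 over Biocontrol on the y axis, in RBPJ-depleted cells on the left (0 higher, 1 lower) and in control cells on the right (35 higher, 1 lower). Of these genes 15 passed the filter on low counts only through control cells with BioNICD1. Fold changes of genes with few counts in Biocontrol depend on the prior count of the fit.

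Some risers of at least 2-fold were not called higher with BioNICD1 in control cells, or could not be tested there. Fosb (log2 0.40, edgeR adjusted p = 0.14), Brdt and Xylb were among those not called with BioNICD1 in control cells, and Jakmip3 was lower. Nrarp, with 53 counts over the libraries at 4 h, held 3, 7 and 6 counts with BioNICD1 and 0 in each Biocontrol library of control cells, too few to be tested. Ccr7 was at 0.508, 0.695 and 0.719 CPM with BioNICD1, against 0.364, 0.446 and 0 CPM with Biocontrol. Of the 365 genes lower at 4 h, 356 were tested with BioNICD1 in control cells, where 66 were lower (18.5%, against 14.2% of all), while 125 were higher (35.1%, against 18.2%). Ndrg1 was among the lower ones (log2 −0.97, edgeR adjusted p = 8.83e-05) and Ankrd37 was not (log2 0.48, 0.191).

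GSI, which blocks release of the cells' own Notch domain, changed 2414 of 11634 genes (20.7%), 9.16% higher and 11.6% lower. That count was 1600 or 1436 without GSI replicate 1 or 2 and 1584 without DMSO replicate 2. Of the 373 risers 339 were tested, and 85 were lower with GSI (25.1%, against 11.7% of all) and 50 higher (14.7%, against 9.19%). Of 361 tested genes that fell at 4 h, 60 were lower with GSI (16.6%) and 118 higher (32.7%). Of the 24 tested risers of at least 2-fold, 2 were lower and 6 higher. Ksr1 was lower with GSI (log2 −0.32, edgeR adjusted p = 0.000227). Il22 (log2 0.63, edgeR adjusted p = 0.0311) and Iltifb (log2 1.11, edgeR adjusted p = 0.00473) were higher with GSI. RBPJ depletion changed 1144 of 11566 genes (9.89%), 6.21% higher and 3.68% lower, and of 349 risers tested 59 were higher (16.9%, against 6.17% of all) and 14 lower (4.01%). The count of 1144 was 379 or 2511 without control replicate 1 or 2 and 482 to 581 without any 1 of the 4 depleted libraries. Same-numbered libraries of that experiment deviated together, and with the replicate number as a block 4260 genes were called and 130 risers were higher (37.2%, against 18.4%) and 29 lower (8.31%, against 18.6%). In that blocked fit, 99 of the genes that fell at 4 h were higher (27.8%) and 106 lower (29.8%). Trib2 was at 17.0, 16.8, 25.1 and 19.2 CPM in the depleted lines, against 0 and 0.832 CPM in the control line, and Aldh3b1 at 1.83 to 3.69 CPM against 9.68 and 18.3 CPM.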

How the data were processed

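The deposited table held unnormalised read counts for 24391 gene symbols, since values were whole and library totals differed; the counting tool and annotation are not given in the sources used here. The submitters' processing notes name TopHat2 2.1.1, Picard, deepTools and mm9. The labels name a stranded total RNA kit "or others", so antisense and overlapping genes may share reads. Of 65 columns 32 were matched to samples by heading, and 33 were not used. The deposited lists of regions were not analysed here.

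Each experiment was fitted alone with edgeR 4.0.16 under R 4.3.3, on genes that passed filterByExpr, after TMM scaling. The NICD1-ER fit held 4 groups of 2 samples. Quasi-likelihood F-tests were two-sided and adjusted by Benjamini-Hochberg over all genes tested (threshold 0.05). DESeq2 1.42.0 was an alternative, and the script was tested on simulated counts. CPM are TMM-normalised unless said otherwise, and a difference is 4-OHT minus ethanol. Where the text gives an adjusted p it is from these fits. Gene names followed a rule: genes called without overlap and with at least 5 CPM in the higher group, the 14 largest folds and 5 largest CPM changes per direction, plus 2 to 4 genes per list by smallest p. Genes named outside it are marked or stand among list members. The comparison, members and gene lists were chosen with earlier results of these data known. Residuals of same-numbered NICD1-ER samples correlated at 0.0524 to 0.16, weakly but positively in each pair, and the main fit left them unpaired. As each group has 2 samples, whose residuals mirror each other, these correlations are not separate results. With the replicate number as a block, 2284 genes differed between 4 and 24 h of 4-OHT, against 1584 in the main fit. In the depletion experiment these correlations ranged from 0.433 to 0.608, and blocked values are given beside its results. Alternatives were RLE factors, other filters, single libraries in place of the sum, a minimum fold of 1.2 and each sample left out. Some genes are not reported here.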

Additional observations from a re-analysis of the deposited data

Results flagged for a closer look

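Effects that differed between times or cell lines by a test of the difference are given here as values. Among the genes with the largest folds at 4 h, the change from 4 to 24 h of 4-OHT ran against that at 4 h for 7 genes. On the log2 scale it was −2.12 for Fosb, 2.71 for Nos2, 2.76 for Stc1, 1.97 for Ankrd37, 0.90 for Ankrd35, 1.42 for Stbd1 and 2.48 for Gm853. These 7 genes were chosen in the same libraries at 4 h. A stray reading there would by itself make the changes run in opposite directions. Of the 51 genes at least 2-fold higher at 4 h, 40 were higher again at 24 h than at 4 h, and of 33 glycolysis and hypoxia genes 19 were higher at 24 h than at 4 h. Of 41 such risers tested with BioNICD1, 31 responded less in RBPJ-depleted than in control cells, but 15 of the 41 were tested only because of their level in control cells with BioNICD1; of the other 26, the count was 20. No group held 4 or more samples, so single outlying samples were not tested for.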

How the results depend on the processing

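The count of genes called at 4 h (738, with 373 higher and 365 lower) was 230 (131 and 99) with DESeq2, 146 (92 and 54) against a minimum fold of 1.2, and 1175 (588 and 587) with the replicate block. It was 561 (264 and 297) with the 24 h 4-OHT group left out of the fit. Under the minimum fold, 4 Notch targets were higher and 5 glycolysis and hypoxia genes lower. Leaving out 1 sample gave 434 to 729 calls, 202 to 355 higher and 198 to 374 lower; 36 to 54 genes were at least 2-fold higher, 5 to 6 Notch targets higher and 13 to 16 glycolysis and hypoxia genes lower. The lone sample left in a group is then assumed to vary like the other groups. Between 4 and 8 h (56), the count was 13 with DESeq2, 126 without a filter, 98 with every library as a sample, 29 with replicate 1 in place of the sum, 152 with the block, and 12 to 111 with a sample left out. Between 4 and 24 h (1584) it was 481 with DESeq2 and 702 to 1535 with a sample left out. BioNICD1 in depleted cells (469) gave 766 with DESeq2 and 165 to 1224 with a library left out, and in control cells 2701 to 3262. GSI gave 690 with DESeq2 and 1436 to 2276 with a library left out. Depletion gave 2671 without a filter, 4260 with the block and 379 to 2511 with a library left out. The cause of these shifts was not tested. Of 130 named or listed genes called at 4 h, 80 were called whichever sample was left out and 81 by DESeq2, and none changed sign with a call under the settings run. In the NICD1-ER experiment all 8 samples correlated best with their own replicate number, a hint from the data and not the design. The 2 samples of a group deviate from its mean by equal and opposite amounts, so these 8 matches are not separate results. Genes near 3 counts in a library cannot be compared at this depth.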

Other observations

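2 genes that were barely detected at 4 h, chosen after their values were seen, were well detected later in the same cells. Mgst1, a microsomal glutathione transferase, held 15 counts over the libraries at 4 h, against 0 in ethanol, and was called at 4 h (edgeR adjusted p = 0.0269). Its levels at 24 h were 20.0 and 17.7 CPM. Prf1, the pore-forming protein of cytotoxic cells and a listed Notch target, held 0, 0 and 1 counts at 4 h, against 0 in both ethanol libraries. It reached 16.8 and 14.5 CPM at 24 h of 4-OHT, above its level at 4 h (edgeR adjusted p = 1.27e-08).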
